A study of Homo sapiens with 3 samples.

Results

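Forkhead box O (FOXO) transcription factors, the insulin receptor with its substrates, and genes that AKT signalling restrains through FOXO were followed here in HCT116 cells, a long-established line of human colon carcinoma. The 9 genes were FOXO1, FOXO3, FOXO4, INSR, IRS1, IRS2, CCNG2, PIK3IP1 and TXNIP, listed by name, with no threshold on their values, although earlier results of these data were known when the list was made. Gene probes were assigned to them by matching the transcript accession of each probe to RefSeq, which gave 15 probes among the 30004 named probes of the array, and the 9 genes are among 21614 named genes. Each probe was printed on 1 spot. Of the 9 genes, 6 (66.7%) had a probe that passed the filters described next, against 12031 (55.7%) of the 21614 genes.

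HCT116 cells were treated for 48 h with a control siRNA or with siRNA #7 or siRNA #8, which are both directed against *HOXA5* short RNA, a transcript of the *HOXA5* locus. Total RNA of each culture, 400 ng, was labeled with the dye Cy3 and read on a SurePrint G3 array. Each condition had a single array, all 3 on 1 slide, so no difference below was checked in replicates, and the number of arrays limits the precision. Scanner files number the siRNAs differently from the sample titles, and the titles were followed, so each value named for siRNA #7 or siRNA #8 rests on that assignment. Intensities are background-subtracted spot values. The level of a probe was the log2 ratio of its intensity to the 75th percentile of its array, and ratios are differences of such levels. A probe passed if it was well above background on all 3 arrays and at or above the 20th percentile on at least 2 of them, and the brightest passing probe stood for a gene. The error given with a ratio is the spot-to-spot SD, taken from probes printed 10 times and combined over the 2 arrays of the ratio. For a probe on several spots it was divided by the square root of their number. The error of a probe printed 10 times is thus that of a mean, and smaller than for a probe on 1 spot. This error covers spotting and scanning but not the culture, the transfection or the labeling.

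FOXO factors carry the transcriptional output of low insulin and growth factor signalling. When a receptor such as the insulin receptor is active, its substrates recruit PI3-kinase, AKT is activated and phosphorylates FOXO proteins, and these are held in the cytoplasm by 14-3-3 proteins. When AKT activity is low, FOXO proteins enter the nucleus and bind promoters of genes for cell cycle arrest, stress defence and apoptosis, and of *IRS2* and *INSR*, which feed back on the pathway. FOXO activity is set largely at the protein level, so the mRNA level of a FOXO gene is not a measure of its activity.

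The siRNA sequences are shown because the comparisons rest on both. They share 17 of their 21 bases, given in capitals, so that siRNA #7 begins 4 bases before siRNA #8 and the stretches they match overlap. The sequences are the designed ones listed by the study, 5′ to 3′.
siRNA #7: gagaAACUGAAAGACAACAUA
siRNA #8: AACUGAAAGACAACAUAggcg

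Promoter stretches are shown for *IRS2*, the member that differed most between the arrays, and for *TXNIP*, the member whose promoter held the long form of the FOXO binding sequence. Both are from RefSeq on GRCh38.p14, on the minus strand of the genome and written in the direction of transcription, with the searched sequence in capitals. The *IRS2* stretch, chr13:109786584-109786733, ends at the base before the transcription start, and its capitals are the reverse complement of the insulin response element CAAAACAA, 41 bases before the start.
IRS2: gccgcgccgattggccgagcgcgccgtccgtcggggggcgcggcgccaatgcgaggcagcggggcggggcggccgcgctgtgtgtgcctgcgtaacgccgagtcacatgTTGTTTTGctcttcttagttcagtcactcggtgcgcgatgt
The *TXNIP* stretch, chr1:145996630-145996779, runs from 200 to 51 bases before the start, and its capitals are the reverse complement of TTGTTTAC, the sequence bound by the FOXO family, 124 bases before the start.
TXNIP: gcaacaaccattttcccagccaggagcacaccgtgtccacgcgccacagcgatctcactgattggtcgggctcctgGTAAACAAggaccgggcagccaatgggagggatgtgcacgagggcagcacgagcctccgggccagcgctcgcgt

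The sequences were searched on both strands from 250 bases before to 50 bases after each start, in 35116 promoters of which 14 belong to the 9 genes. The sequence CAAAACAA was found in 1.68% of all promoters and, among the 9 genes, in that of *IRS2* only. The sequence TTGTTTAC was found in 0.954% of all promoters and, among the 9 genes, in that of *TXNIP* only. Its core GTAAACA, which overlaps the longer match in *TXNIP*, was found in 3.42% of all promoters and in 3 of the 14 promoters of the 9 genes, 1 each of *TXNIP*, *PIK3IP1* and *FOXO4*. A match is a description of letters and not of binding.

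Of the array, 40.5% of the 50599 gene probes were well above background under control siRNA, 37.7% under siRNA #7 and 38.0% under siRNA #8, and no spot was saturated. The pooled spot-to-spot SD of log2 intensity ranged from 0.15 to 0.18 over the arrays. All 5 colon epithelial markers (*EPCAM*, *KRT8*, *KRT18*, *KRT19* and *CDH1*) passed the filters, while of 6 markers of other cell types only *COL1A1* did. *COL1A1* read 48.1 under control siRNA, 28.2 under siRNA #7 and 35.9 under siRNA #8, and *PTPRC*, *PECAM1*, *ALB*, *INS* and *GFAP* had no passing probe. For *HOXA5*, the gene of the targeted locus, the control siRNA array read 84.9, the siRNA #7 array 52.6 and the siRNA #8 array 58.5. Scaled, this gave log2 ratios of −0.36 ± 0.25 (spot-to-spot SD) for siRNA #7 and −0.23 ± 0.26 for siRNA #8 against control siRNA. Its single probe was not placed on the *HOXA5* transcripts here, so it is not known to measure *HOXA5* short RNA.

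Among the FOXO genes, all 3 had a passing probe and none was past 2-fold in any comparison. *FOXO1*, a factor of insulin-regulated transcription, read 76.3 under control siRNA, 60.1 under siRNA #7 and 72.6 under siRNA #8. Its log2 ratio was −0.020 ± 0.25 with siRNA #7 and 0.23 ± 0.26 with siRNA #8, both within 1 spot-to-spot SD of 0. The lower raw intensity with siRNA #7 went with the lower overall brightness of that array, whose 75th percentile was 42.1 against 52.8 on the control siRNA array and 42.8 with siRNA #8.

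*FOXO4*, the FOXO gene on the X chromosome, was dim. Its passing probe read 16.8 under control siRNA, 17.2 under siRNA #7 and 22.2 under siRNA #8. The log2 ratio was 0.36 ± 0.40 with siRNA #7, within 1 spot-to-spot SD of 0, and 0.71 ± 0.41 with siRNA #8, beyond it. Its second probe, at intensities from 1.44 to 1.63, was called above background on none of the 3 arrays. *FOXO4* lay above control siRNA with both siRNAs, and did so under each of the 10 other ways of processing tried. Some of these could hardly move it. The mean of passing probes, no filter, outlier spots kept and the deposited values each gave 0.71 with siRNA #8. The genes whose 3 levels, centred on their mean, were nearest to those of *FOXO4* among the 12031 genes were *TAF10*, *FAM226A* and *YPEL2*, at log2 distances of 0.0065, 0.0074 and 0.021. With 3 arrays such likeness rests on 3 values per gene.

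*FOXO3*, a FOXO factor of stress and apoptosis responses, was measured by 3 passing probes. On its brightest probe the control siRNA array read 944, the siRNA #7 array 878 and the siRNA #8 array 637. Scaled to control siRNA, the log2 ratio was 0.22 ± 0.15 for siRNA #7 and −0.27 ± 0.17 for siRNA #8, each beyond 1 spot-to-spot SD of 0. The siRNA #8 array was the lowest of the 3 on this probe.

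The other *FOXO3* probes had the same order of arrays after scaling. The second gave 594, 533 and 363 for control siRNA, siRNA #7 and siRNA #8, at log2 ratios to control siRNA of 0.17 and −0.41. The dimmest gave 32.5, 40.0 and 22.2, at 0.63 and −0.25. Between the siRNAs, without the control array, siRNA #8 was lower than siRNA #7 on each probe, with log2 ratios of −0.49 ± 0.15, −0.58 and −0.87. The sign against control siRNA depended on the processing. The ratio of siRNA #7 was −0.088 when the arrays were scaled on spike-in probes. That of siRNA #8 was 0.13 under the normexp setting. This setting combined median spot intensities, another background correction (normexp) and scaling by quantiles, and their shares in the change were not separated. *FOXO3B*, a closely similar gene on chromosome 17, could share signal with these probes, which was not tested.

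**Figure D1:**
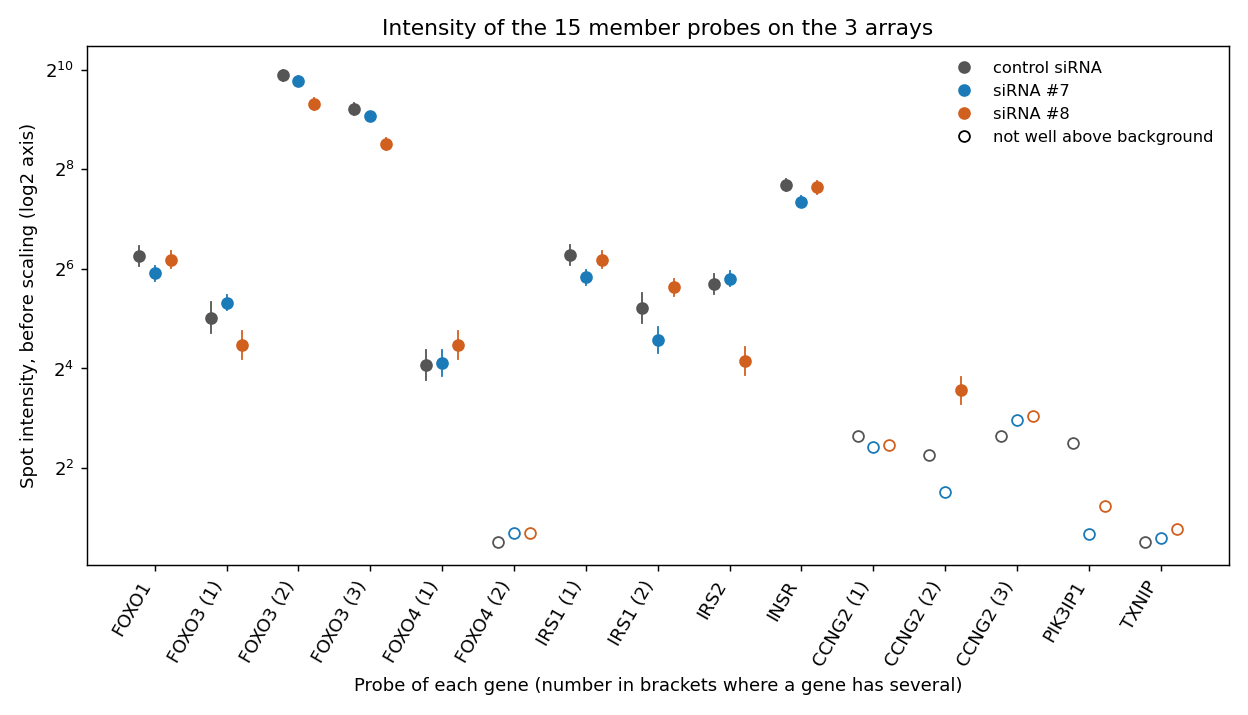
Spot intensity before scaling (log2 axis) of the 15 member probes on the control siRNA, siRNA #7 and siRNA #8 arrays. Filled points are well above background, with bars of 1 spot-to-spot SD, and open points are not. IRS2 is lowest with siRNA #8 (17.8 against 51.6 and 55.7), and the TXNIP and PIK3IP1 points are all open.

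The receptor and its substrates were all measured. *INSR*, the insulin receptor, read 206 under control siRNA, 163 under siRNA #7 and 199 under siRNA #8. Its log2 ratio was −0.013 ± 0.16 with siRNA #7 and 0.25 ± 0.18 with siRNA #8. The ratio with siRNA #7 was within 1 spot-to-spot SD of 0 and took the other sign (0.069) when the median of neighbouring spots was removed.

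*IRS1*, an adaptor that couples the insulin and IGF receptors to PI3-kinase, had 2 passing probes. The brighter read 77.2 under control siRNA, 56.9 under siRNA #7 and 72.5 under siRNA #8, at log2 ratios of −0.11 ± 0.25 and 0.21 ± 0.26. The dimmer gave 37.0, 23.8 and 49.5, at log2 ratios of −0.31 and 0.72. Both probes placed siRNA #7 lowest and siRNA #8 highest after scaling, but the log2 ratio of siRNA #8 to siRNA #7 was 0.33 on the brighter and 1.03 on the dimmer. The brighter probe, by which the gene was counted, lay within 1 spot-to-spot SD of 0 with both siRNAs, and its ratio with siRNA #8 was −0.00044 under the spike-in scaling.

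*IRS2*, an adaptor of the same kind that is itself induced by FOXO factors, differed most. It read 51.6 under control siRNA, 55.7 under siRNA #7 and 17.8 under siRNA #8, so that the siRNA #8 array stood apart from the others. With siRNA #8 it was 0.425 times control siRNA, a log2 ratio of −1.24 ± 0.34, and 179 of the 12031 genes had a lower ratio. With siRNA #7 it was 1.35 times control siRNA, a log2 ratio of 0.43 ± 0.25. Set directly against siRNA #7, it was 0.314 times with siRNA #8, a log2 ratio of −1.67 ± 0.32, and 67 of the 12031 genes had a lower one.

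The *IRS2* values rest on 1 probe and 1 spot per array. For the 13 passing spots around it, each log2 level was centred on its mean over the 3 arrays. The median of these centred levels was 0.031 higher with siRNA #8 than with control siRNA, so the neighbours as a group were not low. The ratios kept their sign under each of those 10 alternatives in all 3 comparisons. Some of these could hardly differ from the ratios above, since *IRS2* has 1 probe on 1 spot. The mean of probes, no filter, outlier spots kept and the deposited values each gave −1.24 for siRNA #8 against control siRNA. The normexp setting, among other changes, adds an offset that draws dim spots together. Under it the ratio of siRNA #8 was −0.48 against control siRNA and −0.59 against siRNA #7, both short of 2-fold. In bulk RNA, fewer cells with the transcript and less of it per cell cannot be told apart.

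Across the members, 0 of 6 were past 2-fold with siRNA #7, where 3.77% of all genes were. With siRNA #8, 1 of 6 was past 2-fold, where 4.98% of genes were in either direction and 3.03% were lower, as *IRS2* was. Between the siRNAs 1 of 6 was past 2-fold, again *IRS2*, where 5.63% of genes were in either direction and 3.33% were lower. No member was past 2-fold with both siRNAs in 1 direction, as 0.898% of genes were. With 6 genes measured, a count of 1 is not read here as a departure from those shares. The median log2 ratio of the members was 0.10 with siRNA #7, 0.22 with siRNA #8 and 0.26 for siRNA #8 against siRNA #7, beside 0.013, 0.0071 and −0.0099 for all genes. Both comparisons with control siRNA share the control array.

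When both siRNA arrays were joined as 1 group and tested against the control array with limma, no member probe was called. With 1 control array and 1 residual degree of freedom this test could call few probes, and it bears little on the members. Of the 18121 probes tested 1 was called at an adjusted p under 0.05 (0.00552%), and 646 (3.56%) had an unadjusted p under 0.05. Among members the lowest unadjusted p in limma was 0.157 for *FOXO4*, at a mean log2 ratio of 0.54, and *IRS2* had an unadjusted p of 0.563, at a mean of −0.40. The adjusted p was 0.9996 for each. It treats the siRNA arrays as replicates and says nothing on siRNA #8 alone.

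**Figure D2:**
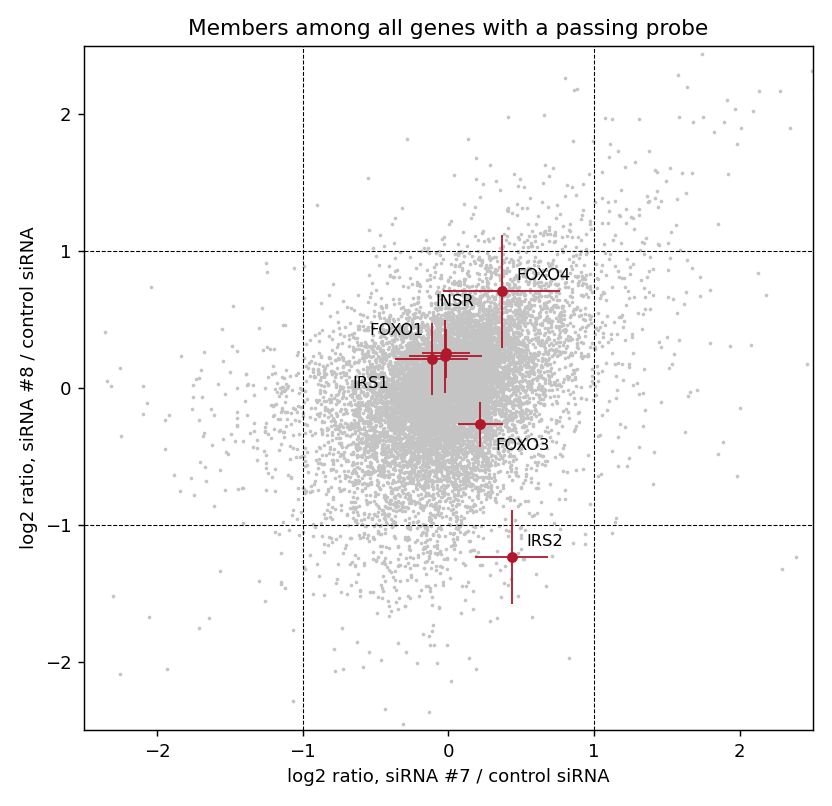
Log2 ratio of siRNA #8 to control siRNA (y axis) against that of siRNA #7 (x axis), with 12009 of the 12031 genes with a passing probe in grey and 22 outside the axes. Members are red, with bars of 1 spot-to-spot SD, and dashed lines mark 2-fold. Only IRS2 lies past a dashed line (0.43 with siRNA #7, −1.24 with siRNA #8). Both axes share the control array.

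The targets that AKT restrains were near or below the detection limit. *CCNG2*, a cyclin that slows the cell cycle and a FOXO target, had 3 probes and none passed. On 1 of them the control siRNA array read 4.78, the siRNA #7 array 2.85 and the siRNA #8 array 11.8, and it was well above background with siRNA #8 only. Scaled, the siRNA #8 reading was set against the lowest intensity called well above background on the dimmer array. It was 2.18-fold that floor on the control siRNA array and 1.58-fold that floor on the siRNA #7 array. Neither is a lower bound, since an uncalled spot can read above the floor. The probe was also called only on the array where it read highest.

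The other *CCNG2* probes were not detected, so they neither show nor exclude this difference, and their intensities are given before scaling. The first read 6.27 under control siRNA, 5.40 under siRNA #7 and 5.51 under siRNA #8. The second gave 6.22, 7.83 and 8.30 in the same order. Neither was well above background on any array, so the folds above rest on 1 of 3 probes and on 1 spot per array. The floor they use, 7.36 for siRNA #7 and 6.67 for control siRNA, is the lowest intensity called on that array. It is not a limit that every uncalled spot stays under. The second of these probes read 7.83 with siRNA #7 and was not called.

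*PIK3IP1*, an inhibitor of PI3-kinase, read 5.70 under control siRNA, 1.61 under siRNA #7 and 2.35 under siRNA #8. *TXNIP*, the thioredoxin-binding protein that limits glucose uptake, gave 1.43, 1.52 and 1.72 in the same order. Neither was well above background on any array, so no ratio is given for them. Thus *TXNIP*, whose promoter held the longer FOXO binding sequence, was not detectable by its probe in these cells under any of the 3 conditions.

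**Figure D3:**
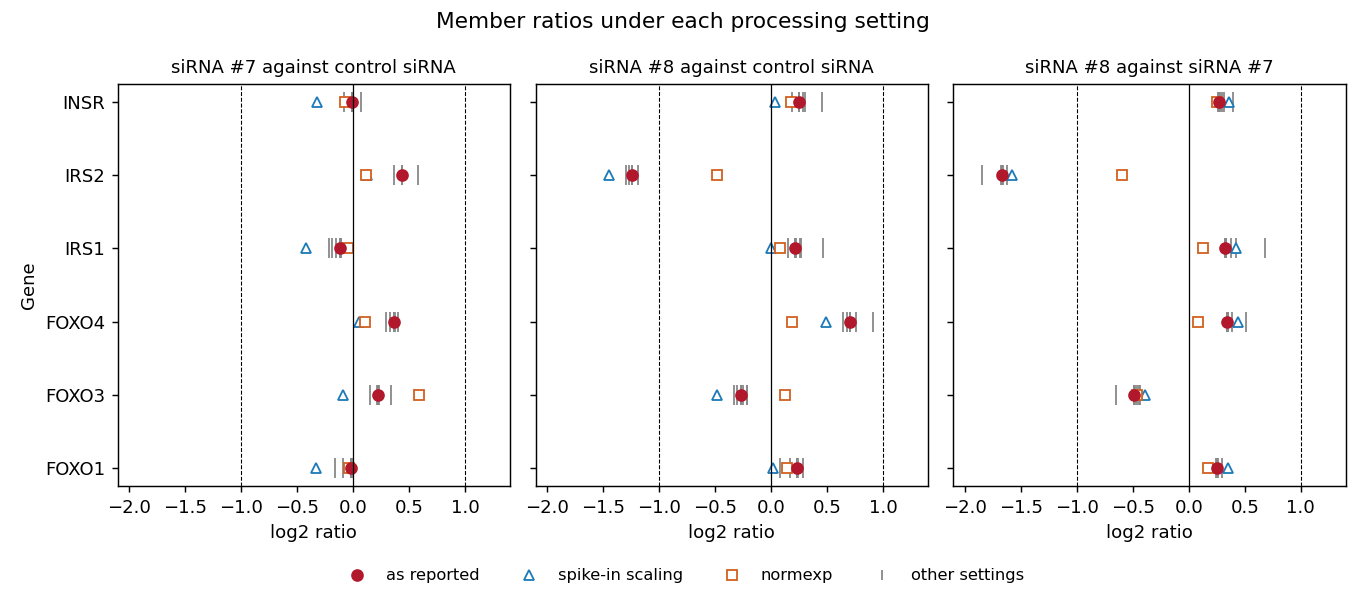
Log2 ratio of the 6 measured members in the 3 comparisons (x axis) as reported (red), under spike-in scaling (triangles), under normexp (squares) and under the other settings (ticks). IRS2 with siRNA #8 moves from −1.24 to −0.48 under normexp, and FOXO3 crosses 0 against control siRNA but stays below it between the siRNAs. Dashed lines mark 2-fold.

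Other known FOXO targets were read from a list of 26 genes, of which 19 had a passing probe. With siRNA #7, 16 of the 19 were above control siRNA and 3 below, 2 were past 2-fold higher and none lower, at a median log2 ratio of 0.16. Among all genes 51.4% were above control siRNA with siRNA #7 and 2.04% past 2-fold higher. With siRNA #8, 14 were above and 5 below, 2 were past 2-fold higher and none lower, at a median of 0.26, while 50.8% of all genes were above and 1.95% past 2-fold higher. Under the spike-in scaling, which moved the median of all genes by −0.31 with siRNA #7 and by −0.21 with siRNA #8, the list medians were −0.15 and 0.048. Without a passing probe were *PDK4*, *TNFSF10*, *SESN3*, *TRIM63*, *IGFBP1*, *G6PC1* and *PCK1*, most of them genes of liver or muscle metabolism.

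*SELENOP*, the secreted selenium carrier, was past 2-fold with both siRNAs. Its probe, printed 10 times, read on average 22.7 under control siRNA, 42.3 under siRNA #7 and 42.5 under siRNA #8. The log2 ratio was 1.22 ± 0.11 with siRNA #7 and 1.21 ± 0.12 with siRNA #8, and these were 0.40 and 0.41 under normexp. *FBXO32*, a ubiquitin ligase subunit of muscle atrophy, had log2 ratios of 1.01 ± 0.40 for siRNA #7 and 0.91 ± 0.41 for siRNA #8. They were 0.17 and 0.20 under normexp. Its probe was dim, at 13.2 under control siRNA, 21.3 under siRNA #7 and 20.1 under siRNA #8. *BBC3*, the apoptosis inducer PUMA, had 0.60 ± 0.15 and 1.20 ± 0.16. With siRNA #8 it was 0.87, short of 2-fold, when the median of neighbouring spots was removed. With siRNA #7 it was 0.29 under the spike-in scaling. *ERBB3*, a receptor that FOXO factors induce when AKT is inhibited, was the lowest of the list by the mean of both ratios, at −0.13 and −0.12, both within 1 spot-to-spot SD of 0, and its ratio with siRNA #8 was 0.51 when the median of neighbouring spots was removed.

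The PI3-kinase and AKT pathway itself was read from 30 genes, of which 26 were measured. With siRNA #7, 17 were above and 9 below control siRNA, none past 2-fold, at a median log2 ratio of 0.11. With siRNA #8, 14 were above and 12 below, at a median of 0.058. Among all genes 51.4% were above control siRNA with siRNA #7 and 50.8% with siRNA #8. Past 2-fold in either direction were 3.77% and 4.98% of all genes. Under the spike-in scaling both medians were negative, −0.20 and −0.16. Only *PHLPP2*, a phosphatase that removes an activating phosphate from AKT, was past 2-fold, reading 70.6 under control siRNA, 37.1 under siRNA #7 and 20.6 under siRNA #8. Its log2 ratios were −0.60 ± 0.33 and −1.48 ± 0.34, or −0.048 and −0.34 under normexp. The highest was *PIK3R2*, a regulatory subunit of PI3-kinase, at 0.39 and 0.59.

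Regulators of FOXO proteins, among them the 14-3-3 proteins, were measured for 15 of 16 genes and none was past 2-fold. Of all genes, 3.77% were past 2-fold in either direction with siRNA #7 and 4.98% with siRNA #8. With 15 regulators measured, none past 2-fold is not read as a departure from those shares. With siRNA #7, 3 were above and 12 below control siRNA, at a median log2 ratio of −0.14, and with siRNA #8, 9 were above and 6 below, at 0.040, where 48.6% and 49.2% of all genes were below. Under the spike-in scaling the medians were −0.44 and −0.17. By the mean of both ratios, the lowest and the highest of the list were the 14-3-3 genes *YWHAH* and *YWHAB*, each on a probe printed 10 times. For *YWHAH* the log2 ratio was −0.17 ± 0.050 for siRNA #7 and −0.64 ± 0.054 for siRNA #8. *YWHAB* had −0.17 ± 0.044 and 0.44 ± 0.047. Both genes were picked as the ends of the list, so their lying on opposite sides of control siRNA with siRNA #8 partly follows from that choice. The other measured 14-3-3 genes had log2 ratios with siRNA #8 between −0.14 (*YWHAE*) and 0.078 (*YWHAG*).

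The genes around *TXNIP*, namely thioredoxins, their reductases and the glucose-sensing MondoA factors and their targets, were measured for 8 of 9. With siRNA #7, 5 were above and 3 below control siRNA, none past 2-fold. With siRNA #8, 4 were above and 4 below, 1 of them past 2-fold lower. Of all genes, 51.4% were above control siRNA with siRNA #7 and 50.8% with siRNA #8. Past 2-fold in either direction were 3.77% and 4.98% of all genes. *TXNRD1*, the cytosolic thioredoxin reductase, read 155 under control siRNA, 127 under siRNA #7 and 55.5 under siRNA #8, with log2 ratios of 0.038 and −1.17, and −0.68 with siRNA #8 under normexp. *ARRDC4*, an arrestin relative of *TXNIP* and a MondoA target, was the highest of the list by the mean of both ratios, at 0.37 and 0.26. The median of the list was 0.074 with siRNA #7 and −0.0056 with siRNA #8, and −0.23 and −0.22 under the spike-in scaling.

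**Figure D4:**
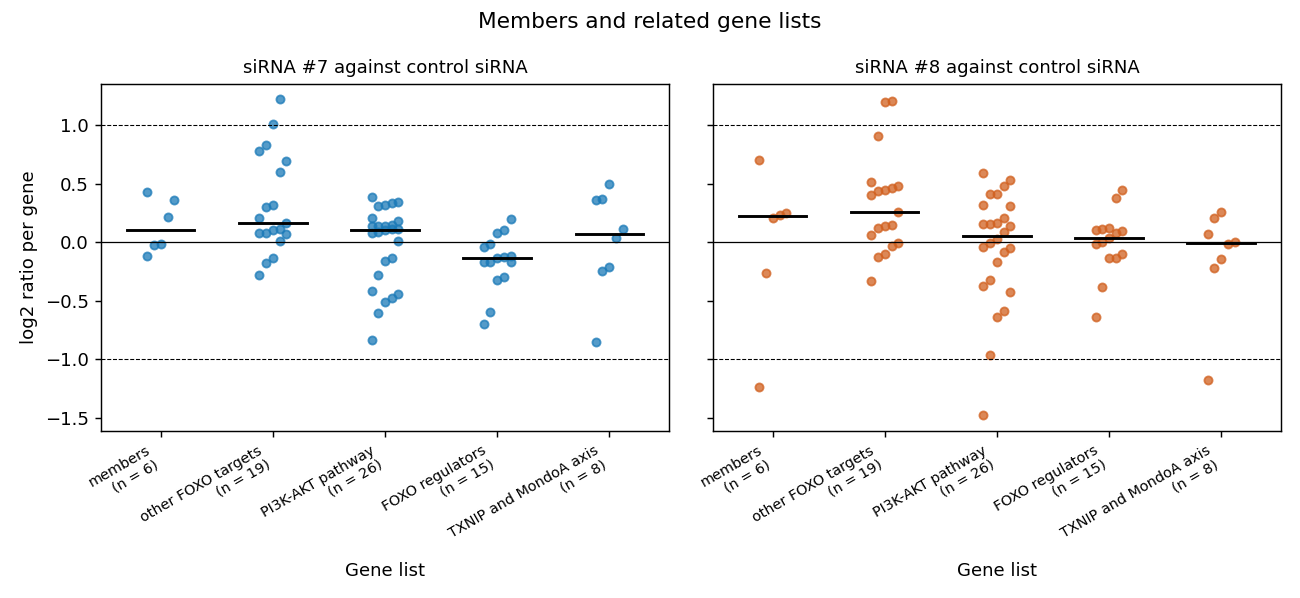
Log2 ratio to control siRNA (y axis) of each measured gene in 5 lists, with siRNA #7 (left) and siRNA #8 (right). Points are genes, thick lines are list medians, dashed lines mark 2-fold and both panels share the control array. The other FOXO targets have medians of 0.16 and 0.26, and none of them is past 2-fold lower.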

How the data were processed

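Expression was measured on 1-colour Agilent SurePrint G3 arrays in HCT116 cells, with 1 array per condition (control siRNA, siRNA #7 and siRNA #8). Per the file headers, the authors used Agilent Feature Extraction 11.5.1.1, and the deposited intensity of each spot is background-subtracted and not scaled between arrays. The authors also deposited a log2 table of 21189 probes, each centred on its median over the arrays. Its differences between arrays had a slope of 1.00 to those computed here.

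Outlier spots, as flagged by the scanner software, were removed (313 to 413 per array), the spots of each probe were averaged, and levels were scaled to the 75th percentile of each array with Python 3.11.15, numpy 2.4.6 and pandas 2.3.3. A probe was well above background if at least 50% of its spots had that flag. Of the probes, 18121 passed the filters. The spot-to-spot SD was pooled within 6 ranges of intensity. Symbols and promoters came from RefSeq on GRCh38.p14, and the array design was annotated on GRCh37, so no probe coordinates are given.

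No test was made between single arrays. The only p-values come from limma 3.58.1 in R 4.3.3, tested on simulated data, with both siRNA arrays as 1 group. The other alternatives were scaling to the median, by quantiles, to the 75th percentile over detected probes or on the E1A spike-in probes, normexp (offset 50), the deposited log2 values, no filter, the mean of probes, outlier spots kept, the removal of the median of spots within 3 rows and columns, and a threshold of 1.5-fold. The normexp setting started from median spot intensities and was then scaled by quantiles, so it changed more than the background correction. The genes named in full were the members, *HOXA5*, and from each list the genes past 2-fold with both siRNAs and the highest and lowest by the mean of both ratios, with the 3 genes nearest to *FOXO4*. *FBXO32* and *BBC3* were named after their values were seen. The members, lists and settings were chosen with earlier results of these data known.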

Additional observations from a re-analysis of the deposited data

Results flagged for a closer look

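For 2 members the siRNA #7 array lay above the control siRNA array and the siRNA #8 array below it by more than 1 spot-to-spot SD each. The log2 ratio of siRNA #8 to siRNA #7 was −1.67 for *IRS2* and −0.49 for the brightest *FOXO3* probe. With 1 array per condition neither difference was tested. The share of all genes that meet this rule was not computed, so the count is not read as a result about the members.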

How the results depend on the processing

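Normexp left no member past 2-fold with siRNA #8, where 1 had been (0 against control siRNA and 0 against siRNA #7). A threshold of 1.5-fold gave 2 members with siRNA #8, *IRS2* and *FOXO4*. Without a filter on dim probes, 1 member was past 2-fold with siRNA #7, *PIK3IP1*, whose probe was called above background on none of the arrays. The share of all genes was not computed for these settings, so their counts are not read as results about the members. Spike-in scaling, on 8 of 10 probes, moved the median of the members with siRNA #7 from 0.10 to −0.21. This scaling shifts every gene of an array by the same amount, so the median of all genes necessarily moved as far. Of the ratios of single members under other settings, 164 moved by less than 1 spot-to-spot SD and 16 by more. The 164 include settings that could not change a gene with 1 passing probe, such as the mean of its probes. No paired analysis was possible because there is 1 array per condition. Dim probes limit what can be said: *CCNG2*, *PIK3IP1* and *TXNIP* have no ratio. The ratios of *FOXO4*, *IRS2*, *SELENOP* and *PHLPP2* shrink under the normexp setting, which among other changes adds an offset to each spot.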
